A study of Mus musculus with 2 samples.

Results

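The genes described here are 38 regulators of mitosis and parts of the kinetochore, picked by gene symbol from a table of 25791 gene rows. All 38 symbols had a row of their own. The rule names genes by function and uses no measured value, but the members were chosen with earlier results of these data known. The rule leaves out most kinesin motors and all condensin subunits. The cells, called Extensively Self Renewing Erythroblasts (ESREs), are erythroid precursors from mice of C57/bl6 background that multiply in culture for long periods, and they were obtained by a published derivation from the early fetus. RNA was sequenced from ESREs in expansion, which were proliferating, and from ESREs after 1 day of maturation. Cytokines and hormones of the 2 cultures are not listed in the labels. Duplicates per time point are mentioned in the series text. The table gives each gene a single value in expansion and another in maturation, 2 values in all, so differences are given with no error, replicate check or p-value.

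Mitosis is driven by cyclin-dependent kinase 1 bound to a cyclin, with Aurora and Polo kinases acting beside it. Spindle microtubules attach to each chromosome at the kinetochore, a protein assembly built on centromeric chromatin, and the spindle assembly checkpoint holds back anaphase until attachment is complete. The anaphase-promoting complex then marks cyclins and securin for destruction, separase opens the rings that hold sister chromatids together, and the cell divides by cytokinesis. Erythroblasts keep dividing during the first part of their maturation, before they leave the cell cycle and expel the nucleus. Most mitotic genes are transcribed in the G2 phase and in mitosis, so their RNA is most abundant in cells in those phases.

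Values are in FPKM, a fragment number divided by the transcript's length and the library's mapped total, so levels can be compared between genes. The log2 ratio is that of FPKM + 1 in maturation over expansion, and the fold given for a gene is the plain ratio of its 2 FPKM values. Counts of genes past 1.5-fold or 2-fold are made on the log2 scale with the added 1, unless the plain ratio is named. With a minimum of 1 FPKM in either group, 9263 rows were counted as expressed. The depth is unknown. All 10 erythroid marker rows were expressed in at least 1 group, though Slc4a1, the anion exchanger of the red cell membrane, was at 0.0744 FPKM in expansion. No marker of granulocytes or lymphocytes reached 1 FPKM in either group. Among macrophage markers only Cd68 did (1.18 FPKM in expansion, 0.539 in maturation), and among endothelial and stromal markers only Vim (1.95 and 0.373 FPKM). Markers of mast cells and basophils (8 rows, 3 expressed) summed to 20.8 FPKM in expansion against 2.84 in maturation, and those of megakaryocytes and platelets (8 rows, 4 expressed) to 22.8 and 4.17. In these 2 lists 1 row was at 0 in expansion and 3 were at 0 in maturation. Of their expressed rows only Gp9, a platelet marker, was higher in maturation, at 0.756 and 1.84 FPKM. The part of such cells in the results below was not tested.

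Nearly all of the mitotic genes stood higher after 1 day of maturation, most of them by less than 2-fold. The log2 ratio was above 0 for 37 of the 38, against 25.9% of all expressed rows. The exception was Nusap1, which binds spindle microtubules, at 7.59 FPKM in expansion against 7.29 in maturation. The median log2 ratio of the 38 was 0.52, with a range of -0.05 to 1.34, while the median of all expressed rows was -0.25. All 38 had a log2 ratio above that median. Birc5, Ccna2, Mki67, Aurka and Prc1 were the 5 genes at least 2-fold higher on this scale (log2 ratio of 1 or more), where 3.13% of expressed rows were, and 16 genes were at least 1.5-fold higher, where 6.3% of rows were. None was at least 1.5-fold lower, while 20.4% of all expressed rows were, and 6.7% of rows were at least 2-fold lower. In a culture, more cells in the G2 phase or mitosis and more RNA per cell cannot be told apart.

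**Figure D1:**
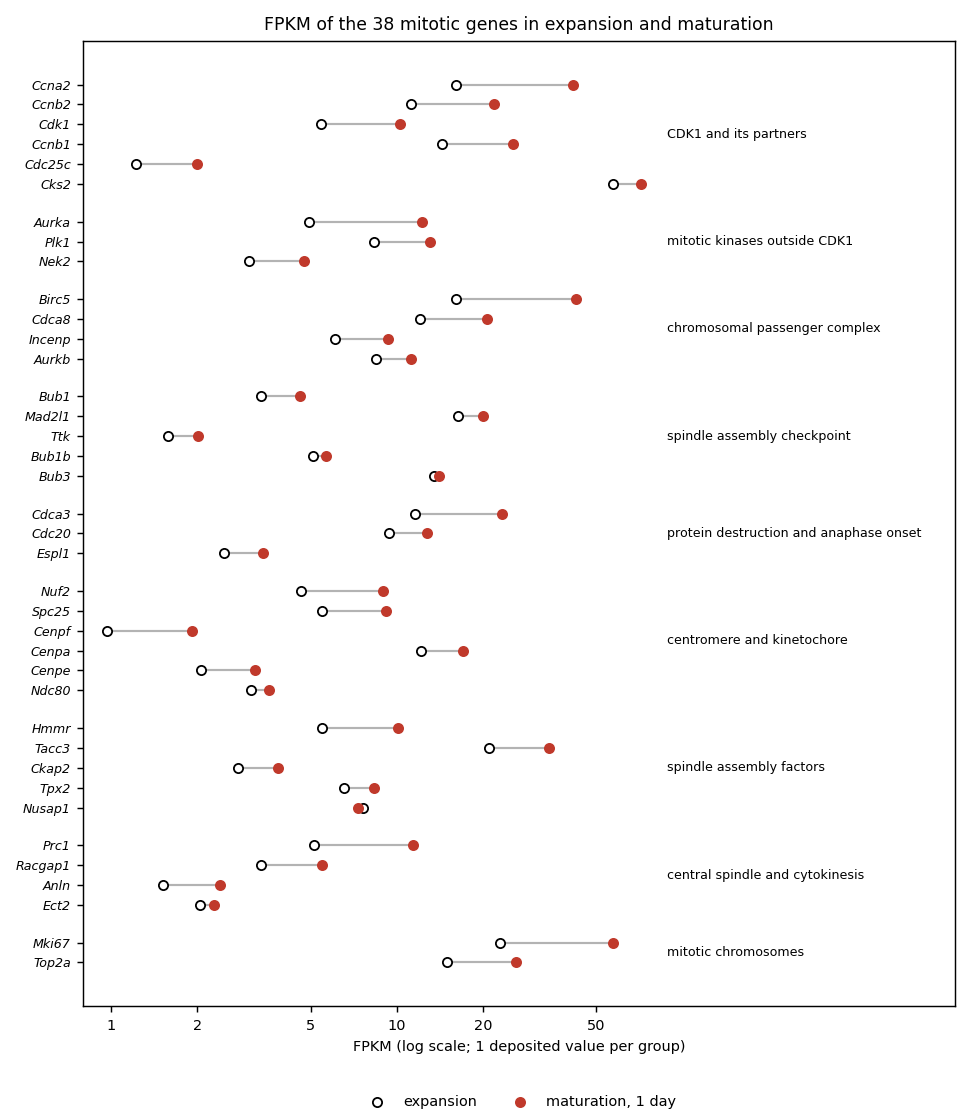
FPKM (log scale) of each of the 38 genes in expansion (open circles) and after 1 day of maturation (filled circles), grouped by role, with 1 deposited value per group and no error. The filled circle lies to the right in 37 genes, and Nusap1 is the exception.

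By the plain ratio of FPKM values, 6 genes were at least 2-fold higher, 17 were between 1.5-fold and 2-fold higher and 14 were between 1-fold and 1.5-fold higher. Of the 9234 expressed rows above 0 in expansion, 3.94% had a plain ratio of at least 2 and 7.86% one of at least 1.5, against 6 and 23 of the 38 genes. The summed FPKM of the 38 was 350 in expansion and 585 in maturation (1.67-fold), or 0.0850% and 0.140% of the summed FPKM of the table. The 5 genes with the greatest gain in FPKM held 48.3% of the summed gain. The order of the levels was much the same in both groups, with Cks2 and Mki67 at the top and Cenpf and Cdc25c at the bottom of each. Across the 38 genes, which come from the same 2 groups and are not replicates, log2 FPKM in expansion and maturation had a Pearson r of 0.966. All 38 rows reached 1 FPKM in maturation, and Cenpf was below it in expansion at 0.968 FPKM. The spread is wide in level, from 0.968 to 57.1 FPKM in expansion and from 1.93 to 71.6 FPKM in maturation, and narrow in ratio, from 0.962-fold to 2.63-fold.

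**Figure D2:**
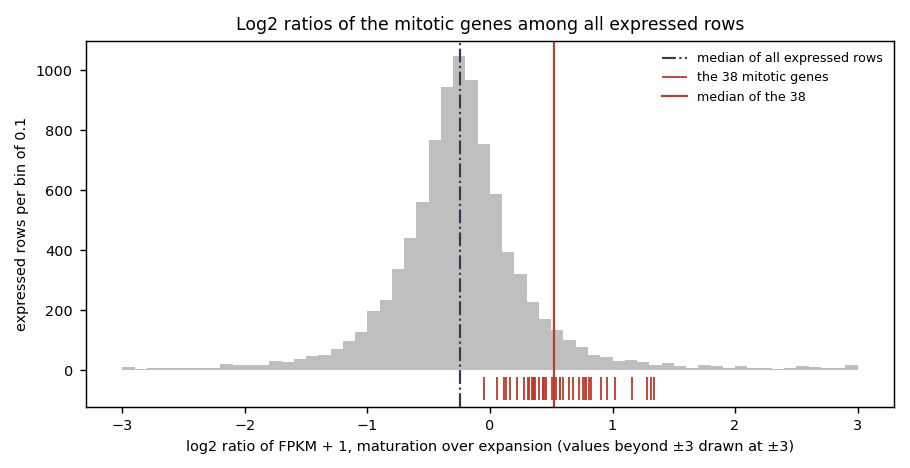
Histogram of the log2 ratio (FPKM + 1, maturation over expansion) of the 9263 expressed rows in bins of 0.1, with a tick below the axis for each of the 38 mitotic genes. The ticks run from -0.05 to 1.34 and their median, 0.52, lies to the right of the median of all rows, -0.25.

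Many of these genes also share short sequences near the transcription start that the choice of members did not use. Promoters of G2 and M phase genes are known for the cell cycle genes homology region (CHR), a site of the DREAM and MuvB-FOXM1 complexes, and for CCAAT boxes bound by NF-Y. A RefSeq table for GRCm38.p6 (250 bases before to 50 after each start; the FPKM table itself uses mm9) gave 36 promoters for 33 of the 38 genes. Aurkb, Ccna2, Cdc25c, Incenp and Tpx2 had no entry. The promoters below are those of the 4 genes with the highest log2 ratios that had an entry (Birc5, Mki67, Aurka and Prc1), of both B-type cyclins, and of Bub3, the checkpoint gene with the lowest ratio. Capitals mark TTTGAA or TTCGAA (CHR) and CCAAT (NF-Y) on either strand, so that CHR can also read TTCAAA and NF-Y can read ATTGG. The windows are chr11:117848987-117849286 (plus strand) for Birc5, chr7:135716330-135716629 (minus) for Mki67, chr2:172370521-172370820 (minus) for Aurka and chr7:80294201-80294500 (plus) for Prc1. Those of Ccnb1, Ccnb2 and Bub3 are chr13:100786437-100786736 (minus), chr9:70421505-70421804 (minus) and chr7:131560120-131560419 (plus), and all are written 5′ to 3′ along the gene.
Birc5: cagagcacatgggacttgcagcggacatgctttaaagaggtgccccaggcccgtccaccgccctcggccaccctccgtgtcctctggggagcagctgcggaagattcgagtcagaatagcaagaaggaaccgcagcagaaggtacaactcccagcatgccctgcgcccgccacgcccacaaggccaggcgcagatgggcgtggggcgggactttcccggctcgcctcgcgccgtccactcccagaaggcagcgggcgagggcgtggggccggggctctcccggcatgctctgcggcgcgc
Mki67: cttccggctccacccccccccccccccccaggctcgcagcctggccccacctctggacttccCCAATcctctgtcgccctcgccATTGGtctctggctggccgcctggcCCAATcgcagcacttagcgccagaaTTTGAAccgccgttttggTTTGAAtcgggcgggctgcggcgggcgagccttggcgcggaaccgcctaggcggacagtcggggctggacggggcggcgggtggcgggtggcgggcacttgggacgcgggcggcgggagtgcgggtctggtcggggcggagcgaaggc
Aurka: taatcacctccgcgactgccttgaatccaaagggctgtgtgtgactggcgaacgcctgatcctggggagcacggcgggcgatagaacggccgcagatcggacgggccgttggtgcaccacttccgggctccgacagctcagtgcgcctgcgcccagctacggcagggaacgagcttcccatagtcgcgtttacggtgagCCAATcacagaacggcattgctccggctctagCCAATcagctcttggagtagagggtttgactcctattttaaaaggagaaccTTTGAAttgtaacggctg
Prc1: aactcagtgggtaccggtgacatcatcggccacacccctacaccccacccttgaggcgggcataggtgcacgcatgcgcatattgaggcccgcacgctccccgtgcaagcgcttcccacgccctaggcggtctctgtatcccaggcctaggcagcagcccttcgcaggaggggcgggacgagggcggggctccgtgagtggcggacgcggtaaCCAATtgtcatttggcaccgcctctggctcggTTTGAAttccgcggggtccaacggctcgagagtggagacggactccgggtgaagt
Ccnb1: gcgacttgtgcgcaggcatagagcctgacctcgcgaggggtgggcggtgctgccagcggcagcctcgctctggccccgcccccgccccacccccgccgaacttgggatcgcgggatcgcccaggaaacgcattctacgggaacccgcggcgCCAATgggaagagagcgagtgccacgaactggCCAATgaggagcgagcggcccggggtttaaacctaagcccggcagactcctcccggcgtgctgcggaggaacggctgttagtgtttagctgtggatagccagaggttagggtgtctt
Ccnb2: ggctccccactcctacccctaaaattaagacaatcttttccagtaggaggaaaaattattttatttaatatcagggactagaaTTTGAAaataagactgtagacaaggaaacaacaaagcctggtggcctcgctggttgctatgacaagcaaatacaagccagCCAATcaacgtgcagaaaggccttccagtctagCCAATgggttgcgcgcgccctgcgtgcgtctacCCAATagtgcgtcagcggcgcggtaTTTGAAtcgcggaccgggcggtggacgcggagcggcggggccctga
Bub3: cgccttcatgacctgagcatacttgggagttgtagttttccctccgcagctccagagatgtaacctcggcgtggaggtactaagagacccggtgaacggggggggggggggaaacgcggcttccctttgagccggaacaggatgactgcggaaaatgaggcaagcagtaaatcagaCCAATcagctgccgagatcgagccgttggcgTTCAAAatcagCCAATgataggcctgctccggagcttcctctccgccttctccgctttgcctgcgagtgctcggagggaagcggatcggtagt

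A CHR was found in 27 of the 36 member promoters (75%), against 19.2% of all 32851 promoters and 14.6% of the 7293 promoters of expressed rows. It began within 60 bases before to 40 bases after the start in 24 of the 36 (66.7%). The share was 5.7% of all promoters and 4.09% of those of expressed rows. The CHR of Bub1b begins at 40, the edge of that window, so the window cannot be taken as set independently of these positions. NF-Y motifs were found in 29 of the 36 (80.6%), against 37.4% of all promoters and 39.4% of those of expressed rows. At least 2 of them were in 21 of the 36 (58.3%), against 11.7% and 16.1%. Both motifs were present in 25 of the 36 (69.4%), against 7.52% of all promoters and 6.54% of those of expressed rows. Of the 36, 24 (66.7%) had at least 1 CHR downstream of at least 1 NF-Y motif. The share was 4.01% of all promoters, 3.74% of those of expressed rows and 54.5% of those of mitotic kinesins. These shares also reflect how often the 2 motifs occur together. An NF-Y motif can still lie nearer the gene, as in Bub3 (NF-Y at -74 and -32, CHR at -43). A pair of NF-Y motifs whose first bases were 31 to 34 bases apart was present in 9 of the 36 (25%). This spacing was chosen after the positions were seen. Such a pair was in 1.2% of all promoters and 2.14% of those of expressed rows. In the Aurka promoter the NF-Y motifs begin at positions -51 and -19 from the start and the CHR at 32. Ccnb2 has 3 NF-Y motifs, at -87, -54 and -21, and a CHR at 4, with a further CHR at -167. Ccnb1 has an NF-Y pair, at -99 and -67, and no CHR by these letters. Birc5, Mad2l1, Nuf2, Nusap1 and Tacc3 had neither motif in the window by these letters. The CHR and NF-Y letters overlap in 1 member promoter, that of Cdca8, and in 0.146% of all promoters.

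**Figure D3:**
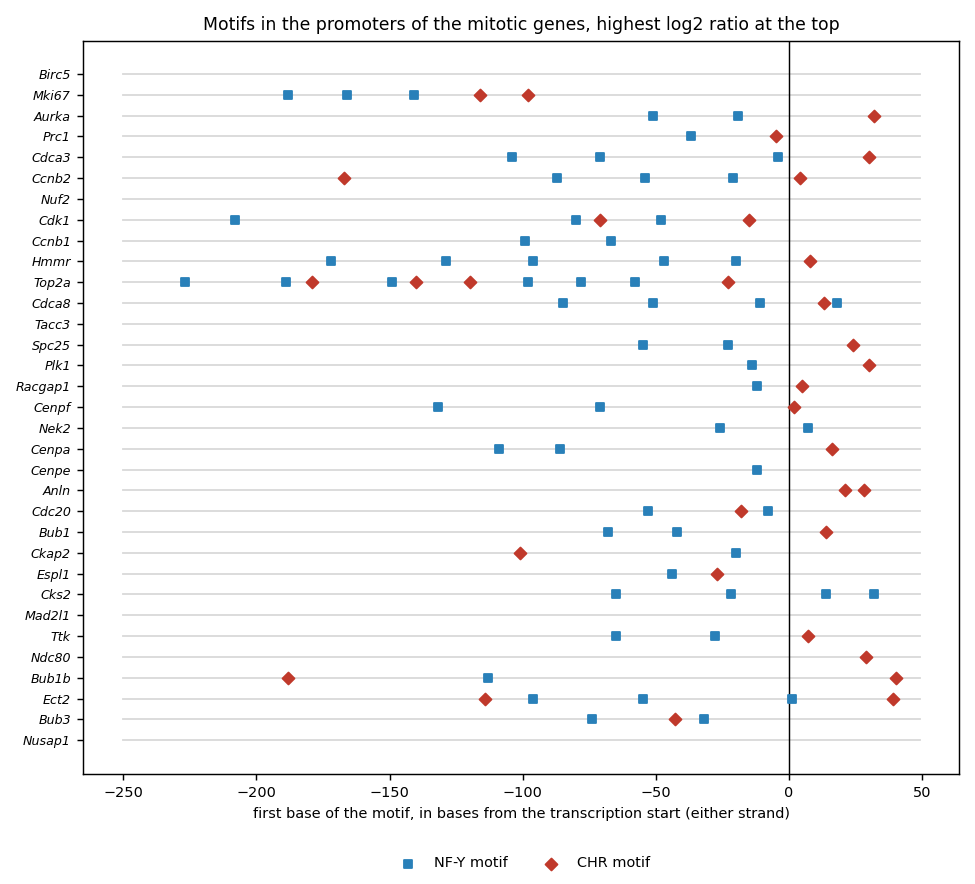
Position of CHR (diamonds) and NF-Y (squares) motifs in the promoter of 33 mitotic genes, in bases from the transcription start, with the gene of the highest log2 ratio at the top. Where a gene has several promoters the first is drawn. Many CHR motifs lie near the start, and most NF-Y motifs lie upstream of the start.

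By the letters searched, the median log2 ratio within the list was higher for genes with a CHR than without, and likewise for NF-Y. These differences were not tested. Only TTTGAA and TTCGAA were counted as a CHR, and other spellings were not searched. The median log2 ratio was 0.57 for the 24 genes with a CHR and 0.51 for the 9 without. It was 0.57 for the 26 genes with an NF-Y motif and 0.43 for the 7 without. The 5 genes with no promoter entry, among them Ccna2 (log2 ratio 1.31), are not in these medians. Birc5, with the highest ratio, and Nusap1, with the lowest, both lacked the 2 motifs by these letters. Promoters of 12 mitotic kinesins, a list set beside the members, held a CHR in 10 of 11 windows (90.9%). For 20 genes of the S phase, such as the Mcm helicase genes, it was 3 of 17 (17.6%). A CHR was in 6 of 8 condensin windows (75%) and 11 of 31 windows of other centromere and kinetochore genes (35.5%). For the anaphase-promoting complex and its regulators it was 5 of 19 (26.3%). At least 1 NF-Y motif was in 13 of those 17 S phase promoters (76.5%) and at least 2 in 7 of them (41.2%), and at least 1 was in 7 of the 11 kinesin promoters (63.6%). An E2F motif (TTTCCCGC, TTTGGCGC, TTTCGCGC or TTTGCCGC on either strand) was in 7 of those 17 S phase promoters (41.2%). It was in 1 of the 36 member promoters (2.78%, that of Cdk1), in 2.26% of all promoters and in 4.59% of those of expressed rows. A motif match is a description of letters, and binding was not measured.

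Cyclin-dependent kinase 1 and its partners stood higher as a group, with all 6 log2 ratios above 0 and a median of 0.80. Past 1.5-fold were 4 genes on the log2 scale (5 by the plain ratio, with Cdc25c). Of all expressed rows, 25.9% were above 0 and 6.3% were at least 1.5-fold higher on the log2 scale. By the plain ratio, 7.86% of those above 0 in expansion were. Cdk1, the kinase that starts mitosis (chromosome 10, mm9 68799383 to 68815660), was at 5.43 FPKM in expansion against 10.3 in maturation, a fold of 1.89. Ccna2, cyclin A2, which acts from S phase to early mitosis (chromosome 3, 36451528 to 36470918), was at 16.1 and 41.6 FPKM, 2.58-fold. The B-type cyclins, which bind Cdk1 at mitotic entry, differed by less than cyclin A2. Ccnb1 was at 14.3 and 25.4 FPKM (1.77-fold) and Ccnb2 at 11.2 and 21.8 FPKM (1.95-fold). Against Cdk1, the level of Ccnb1 was 2.64 times as high in expansion and 2.48 times in maturation, and that of Ccnb2 2.07 and 2.13 times, so both kept close to a fixed proportion. Ccna2 went from 2.97 to 4.05 times the level of Cdk1.

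Cks2, a small adaptor that helps Cdk1 bind its substrates, had the highest level of the 38 in both groups, 57.1 and 71.6 FPKM. Its fold was only 1.25, and its level went from 10.5 to 6.98 times that of Cdk1. Cdc25c, a phosphatase that activates Cdk1, was among the lowest at 1.22 and 1.99 FPKM (1.63-fold). Its locus overlaps the row Gm3550, which was at 120 and 101 FPKM. The rows of Ccnb1 and Ccna2 carry a similar limit. Of the stretches of 50 bases in the longest GENCODE M21 transcript of Ccnb1, 42.1% also occur in another gene, mostly the pseudogene Ccnb1-ps, and the share for Ccna2 is 15.9%, mostly with the overlapping gene Exosc9. Exosc9 was at 7.98 and 6.91 FPKM, lower in maturation where Ccna2 was higher. The locus of Ccnb1 overlaps that of Cenph, an inner kinetochore gene, which was higher in maturation as Ccnb1 was, at 4.45 and 10.1 FPKM. For Cks2 the share was 29.7%, mostly with Gm15452. The sources used here do not say whether counting used strand or how shared reads were divided.

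Among the other mitotic kinases, Aurora A stood out in fold. Aurka, which works at centrosomes and spindle poles (chromosome 2, 172181696 to 172196006), was at 4.94 FPKM in expansion against 12.3 in maturation, 2.48-fold. Plk1, the Polo-like kinase of mitotic entry and spindle formation, was at 8.29 and 13.0 FPKM (1.57-fold), and 10.9% of its 50-base stretches also occur in another gene, mostly Plk-ps1. Nek2, a centrosomal kinase, was at 3.05 and 4.75 FPKM (1.56-fold). Tpx2, the spindle protein that binds and activates Aurora A, differed by much less than its partner, at 6.51 and 8.32 FPKM (1.28-fold). The level of Aurka was therefore 0.759 times that of Tpx2 in expansion and 1.47 times in maturation. It was 0.584 times that of Aurkb, the other Aurora kinase of the list, in expansion and 1.09 times in maturation.

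The 4 subunits of the chromosomal passenger complex, which corrects faulty spindle attachments and later acts in cytokinesis, were all higher but by unequal amounts. On the log2 scale 2 of the 4 were at least 1.5-fold higher. Of all expressed rows, 25.9% were above 0 and 6.3% were at least 1.5-fold higher. Birc5, which encodes survivin (chromosome 11, 117710551 to 117717057), was at 16.1 FPKM in expansion against 42.4 in maturation, and its fold of 2.63 was the highest of the 38. Cdca8, which encodes borealin, was at 12.1 and 20.7 FPKM (1.71-fold). Incenp, the scaffold of the complex, was at 6.10 and 9.33 FPKM (1.53-fold). Aurkb, its kinase, was at 8.47 and 11.2 FPKM (1.33-fold). Set against Aurkb, Birc5 stood at 1.91 times its level in expansion and 3.77 times in maturation. The same proportion for Incenp was 0.720 and 0.831.

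**Figure D4:**
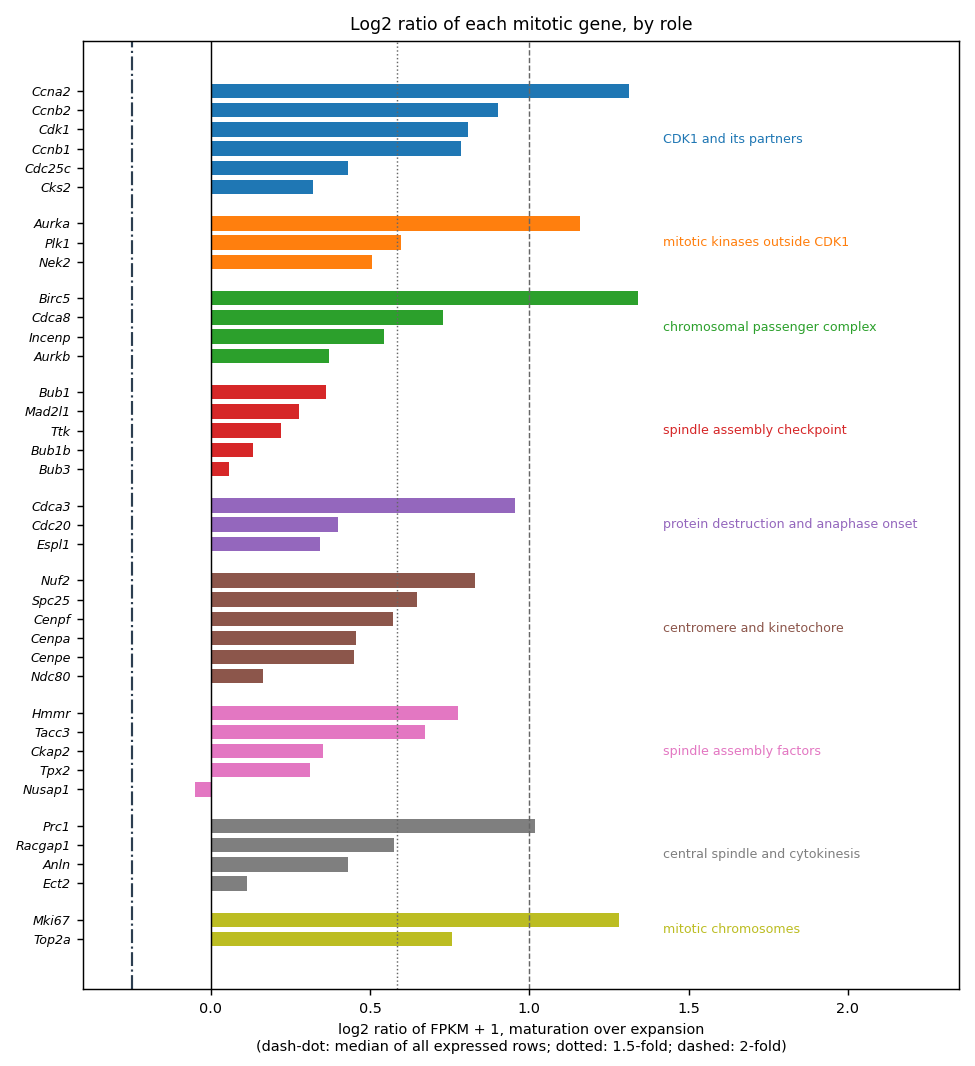
Log2 ratio (FPKM + 1, maturation over expansion) of each of the 38 genes as bars from 0, grouped and coloured by role, with lines at 1.5-fold, at 2-fold and at the median of all expressed rows. The 5 checkpoint genes lie between 0.06 and 0.36, while Birc5, Ccna2, Mki67, Aurka and Prc1 pass 1.

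The spindle assembly checkpoint genes differed least between the 2 groups. All 5 log2 ratios were above 0 and none reached 1.5-fold, where 25.9% and 6.3% of all expressed rows did. The median of the 5 was 0.22, and their summed FPKM was 39.9 and 46.4 (1.16-fold). Bub3, a checkpoint scaffold (chromosome 7, 138703905 to 138715412), was at 13.5 FPKM in expansion against 14.1 in maturation. Bub1b, which encodes the checkpoint inhibitor BubR1, was at 5.08 and 5.66 FPKM. Bub1, a kinase recruited to kinetochores, was at 3.34 and 4.57 FPKM (1.37-fold, the highest of the 5). Mad2l1, which encodes the Mad2 protein that holds Cdc20 inactive, was at 16.3 and 20.02 FPKM, and Ttk, the kinase Mps1 that starts the signal, was at 1.59 and 2.01 FPKM. Cdc20, the target of the checkpoint and activator of the anaphase-promoting complex, was at 9.43 and 12.8 FPKM (1.35-fold). Its level was 1.86 times that of Bub1b in expansion and 2.25 times in maturation, and Mad2l1 stood at 1.73 and 1.57 times the level of Cdc20. Of the 50-base stretches of Cdc20, 11.6% also occur in another gene, mostly Gm7856, and its locus overlaps that of Elovl1, which was at 22.3 and 18.4 FPKM.

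Espl1 encodes separase, the protease that opens cohesin rings at anaphase, and was at 2.48 FPKM in expansion against 3.41 in maturation (1.38-fold). Pttg1, its inhibitor securin and no member of the list, was lower in maturation at 5.64 and 3.88 FPKM. The level of Pttg1 was thus 2.28 times that of Espl1 in expansion and 1.14 times in maturation. Cdca3, a mitotic entry factor linked to protein destruction, was at 11.6 and 23.3 FPKM, a fold of 2.02 by the plain ratio and a log2 ratio of 0.95. Cdca3 was therefore the gene that passed 2-fold by the plain ratio and not on the log2 scale with the added 1.

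Of the 6 centromere and kinetochore genes, 2 were at least 1.5-fold higher on the log2 scale, where 6.3% of all expressed rows were. The median log2 ratio of the 6 was 0.51. Cenpa, the histone H3 variant that marks centromeres, had the highest level of them at 12.1 FPKM in expansion against 17.02 in maturation (1.40-fold). Ndc80, Nuf2 and Spc25 encode 3 of the 4 subunits of the NDC80 complex, which binds microtubules at the outer kinetochore. Nuf2 was at 4.61 and 8.96 FPKM (1.94-fold) and Spc25 at 5.49 and 9.15 FPKM (1.67-fold). Ndc80 itself was at 3.08 and 3.56 FPKM (1.16-fold), so Nuf2 stood at 2.52 times its level in maturation (1.499 times in expansion). Spc24, the fourth subunit and no member, was at 4.68 and 7.76 FPKM, 0.854 times the level of Spc25 in expansion and 0.848 times in maturation. Cenpe, a kinetochore motor, was at 2.06 and 3.18 FPKM (1.54-fold). Cenpf, a large protein of the outer kinetochore, was lowest at 0.968 and 1.93 FPKM, and the added 1 turns its plain fold of 1.99 into a log2 ratio of 0.57.

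Spindle assembly factors were mixed in size, with a median log2 ratio of 0.35. At least 1.5-fold higher were 2 of the 5, where 6.3% of all expressed rows were. Tacc3, which stabilises spindle microtubules with clathrin, was at 21.1 FPKM in expansion against 34.2 in maturation (1.62-fold). Hmmr, which helps to place the spindle, was at 5.46 and 10.1 FPKM (1.84-fold). Ckap2, a microtubule-binding protein, was at 2.78 and 3.82 FPKM (1.38-fold). Nusap1 (chromosome 2, 119435268 to 119475896) was the 1 gene of the 38 with a lower value in maturation, 0.962-fold, and its ratio turned above 0 when the groups were rescaled (0.20 after centring on the median of expressed rows). Its locus overlaps that of Oip5, a centromere gene, which was at 2.61 and 4.81 FPKM.

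In the genes of the central spindle and cytokinesis, Prc1 differed most. Prc1, which bundles antiparallel microtubules between the separating chromosomes (chromosome 7, 87439351 to 87461145), was at 5.14 FPKM in expansion against 11.4 in maturation (2.23-fold). Of its 50-base stretches 26.6% also occur in another gene, mostly its neighbour Rccd1, which was at 0.981 and 0.656 FPKM. Racgap1, a subunit of centralspindlin, was at 3.34 and 5.47 FPKM (1.64-fold). Ect2, which Racgap1 recruits to activate RhoA at the cleavage furrow, was at 2.04 and 2.29 FPKM (1.12-fold), and Racgap1 went from 1.64 to 2.39 times its level. Anln, the furrow scaffold anillin, was at 1.52 and 2.40 FPKM (1.58-fold).

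The 2 genes of mitotic chromosomes were both at least 1.5-fold higher, where 6.3% of all expressed rows were. Mki67, the proliferation marker Ki-67 that coats mitotic chromosomes (chromosome 7, 142881471 to 142908062), was at 23.0 FPKM in expansion against 57.3 in maturation (2.49-fold) and had the second highest level of the list in both groups. Top2a, the topoisomerase that untangles sister chromatids, was at 15.0 and 26.1 FPKM (1.74-fold). Mki67 went from 1.53 to 2.20 times the level of Top2a.

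Other genes of cell division, in lists set by function beside the members, differed from list to list. Mitotic kinesins (12 of 12 log2 ratios above 0, median 0.53) and condensin subunits (8 of 8, median 0.53) lay close to the 38 members, and the S phase genes lay higher (20 of 20, median 0.84). On the log2 scale 5 of the 12 kinesins were at least 1.5-fold higher, against 16 of the 38 members and 6.3% of all expressed rows. Of 35 expressed genes among the other centromere and kinetochore genes, 31 had a log2 ratio above 0 and the median was 0.33. Cenpm, a subunit of the inner kinetochore, was at 2.16 and 6.73 FPKM, while Zwint, which ties the RZZ complex to the kinetochore, was at 8.37 and 6.98 FPKM. Spindle and cytokinesis genes outside the list had a median of 0.19, with 19 of 24 above 0. Of all expressed rows, 25.9% had a log2 ratio above 0. None of these lists was tested against another.

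**Figure D5:**
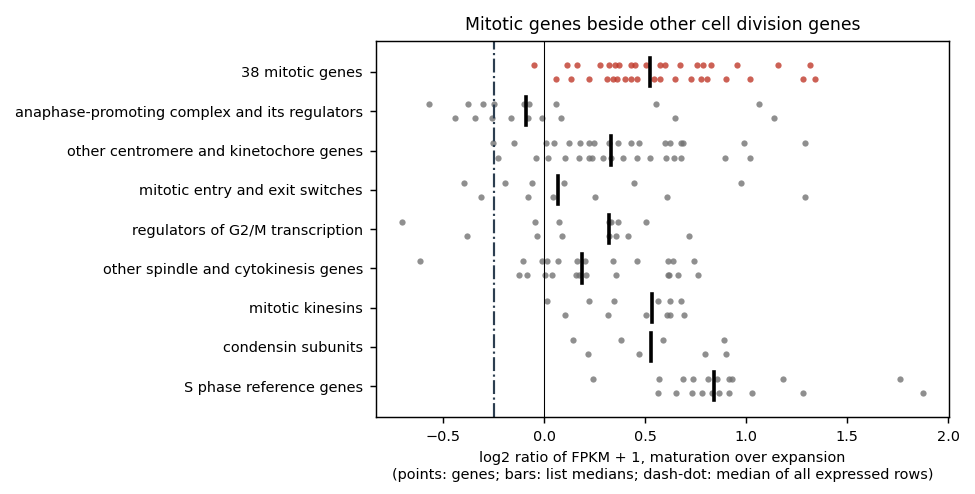
Log2 ratio (FPKM + 1, maturation over expansion) of each gene in the 38 members and in 8 other lists of cell division genes, as points, with the list median as a bar and the median of all expressed rows as a dash-dot line. The members' median of 0.52 lies next to those of kinesins and condensins (0.53 each), below that of S phase genes (0.84) and above that of the anaphase-promoting complex list (-0.09).

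The anaphase-promoting complex and its regulators were the list nearest to the median of all rows. Of its 18 genes 6 were above 0, where 25.9% of all expressed rows were, and its median was -0.09. The sign of that median turned with the scaling, to 0.16 after centring. Within it Ube2c, the enzyme that starts ubiquitin chains for the complex, was at 25.5 FPKM in expansion against 54.2 in maturation, and Fbxo5, its inhibitor Emi1, was at 6.24 and 14.95 FPKM. Fzr1, the activator that takes over from Cdc20 in late mitosis and G1, was at 5.51 and 4.81 FPKM, so its level was 0.584 times that of Cdc20 in expansion and 0.377 times in maturation. Among the switches of mitotic entry and exit, 7 of 12 expressed genes were above 0 (median 0.07). Cdc25b, a phosphatase that activates Cdk1, was at 1.205 and 4.40 FPKM. Wee1, a kinase that holds Cdk1 inactive, was at 3.20 and 2.38 FPKM. Pkmyt1, another such kinase, went the other way, at 3.32 FPKM in expansion and 5.58 in maturation. Among regulators of G2/M transcription, 10 of 14 were above 0 (median 0.32). Mybl2, a transcription factor of the MuvB complex, was at 6.16 and 10.8 FPKM, and Foxm1, which joins it in G2, was at 2.61 and 3.53 FPKM. Rbl2, the DREAM repressor p130, had the lowest log2 ratio of them (-0.71), at 2.74 and 1.30 FPKM.

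The counts of members past a fold depend on how the 2 groups are scaled, since the median of all expressed rows was itself below 0. After centring on that median, 12 of the 38 were at least 2-fold higher, where 4.53% of all expressed rows were, and over all expressed rows the split of 290 higher and 621 lower became 420 and 363. Of the 38 genes, 37 had a log2 ratio above 0 under each pseudocount and scaling tried, and the sign of Nusap1 changed. The 25.9% of all expressed rows above 0 holds for the values as deposited, and that share was not computed for the other settings. Centring sets the median of all expressed rows to 0, and with upper quartile scaling it was -0.08, so more rows lie above 0 there.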

How the data were processed

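RNA from the expansion and maturation groups was sequenced, and the authors deposited 1 table of FPKM values, holding a single value for each gene in each group, per the file headers. The submitters' processing notes name mm9 as the build and Cuffdiff 2.0.2 as a tool, while the sources used here give no aligner, annotation, strand setting or read length. Libraries were made from total RNA with a NextFlex kit, per the labels' protocols. No counts, confidence bounds or replicate values were used here, so the depth and the error are unknown and there was no test. FPKM is a share of each library, so a rise in a few abundant RNAs lowers the values of all others.

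The members were matched by symbol. Log2 ratios used a pseudocount of 1 FPKM, rows needed 1 FPKM in at least 1 group, and counts at 2-fold and 1.5-fold describe size only. The rule for named genes took all members, the 3 highest and 2 lowest log2 ratios of each related list and the direct partners of members. The text names a selection of the list genes, and others named were chosen after their values were seen. Of 208 list entries, 198 matched by symbol and 8 by a RefSeq synonym (GRCm38.p6, used for names and promoters). Members, lists and motifs were chosen with earlier results of these data known. Table starts are counted from 0 and were raised by 1, since end minus start equalled the RefSeq length in 182 of 385 microRNA rows and was 1 base short in 0. Shared stretches were counted in GENCODE M21 transcripts. Alternatives were pseudocounts of 0.1 and 5, other scalings and other filters. Work was done in Python 3.11.15 with pandas 2.3.3.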

Additional observations from a re-analysis of the deposited data

How the results depend on the processing

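With 1 deposited value per group, no replicate could be left out and no test could be repeated, and the depth sets a limit that cannot be measured here. No paired analysis was possible because the table has 1 value per group and no replicate columns. The median log2 ratio of the 38 genes stayed above 0 under all 8 alternatives, from 0.32 with a pseudocount of 5 to 0.77 after centring. The median of all expressed rows was -0.13 and 0 in those 2 settings. In all alternatives but a minimum of 5 FPKM, 37 or 38 genes were above 0. That minimum left 27 genes, 26 of them above 0. The share of all rows above 0 was not computed for the alternatives. The count at least 2-fold higher, 5 as reported, was 3 with a pseudocount of 5, 8 with upper quartile scaling, 12 after centring on the median of expressed rows, and 10 with equal sums without small RNA and globin rows, a scaling chosen after seeing the data. The count at least 1.5-fold higher, 16 as reported, was 11 with a pseudocount of 5, 29 after centring and 25 with that last scaling, where 3.61%, 10.8% and 9.71% of all expressed rows were, against 6.3% as reported. The share of all rows at least 2-fold higher moved too, from 3.13% to 1.79%, 3.96%, 4.53% and 4.24% with a pseudocount of 5, upper quartile scaling, centring and the last scaling. The scalings alter all genes by a common factor, and the pseudocount alters low values most.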

Other observations

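A few rows of late cell division stood lower in maturation, against the direction of the mitotic genes as a whole; they were chosen after their values were seen. Cep55, which encodes a scaffold of the final cut between daughter cells, was at 0.835 FPKM in expansion against 0.00574 in maturation. Depdc1b was at 0.832 and 0.221 FPKM, and Fam64a, a substrate of the anaphase-promoting complex, at 1.16 and 0.410 FPKM. All of these values are low, and at an unknown depth few reads may lie behind them. Cep55 and Depdc1b were below 1 FPKM in both groups, so they were not counted as expressed. Of the 9263 expressed rows, 6866 had a log2 ratio below 0. In the other direction, the condensin subunits Smc2 and Ncapg2 were higher in maturation, at 5.57 and 11.2 FPKM and at 2.80 and 6.08 FPKM.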
